A study of Mus musculus with 2 samples.

Results

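The Krüppel-like factors are zinc finger transcription factors, and 10 of them (Klf2, Klf3, Klf4, Klf6, Klf7, Klf9, Klf10, Klf11, Klf12 and Klf13) are described here in macrophages of mice with acute myeloid leukaemia. The genes were taken by their symbol from the gene tables of 2 RNA-seq libraries, and they are 10 of 16428 genes with a read in at least 1 library. The leukaemia is driven by MLL-AF9, a fusion oncogene of human acute leukaemia, and the recipients were C57BL/6J mice with a stated age of 6 to 8 weeks. Each received 500000 GFP-labelled leukaemia cells taken from sick animals, with no irradiation, and the mice survived 25 to 30 days. Macrophages were sorted on day 15 from bone marrow for 1 library and from spleen for the other. Both groups thus carry the same leukaemia and differ in tissue. Both libraries also held transcripts of other lineages, in unlike amounts, as given with the marker lists below. How many mice stand behind a library, and which surface markers the sort used, is not stated in the sources used here. Healthy macrophages were not analysed here.

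Krüppel-like factors bind GC-rich and CACCC-type DNA through zinc fingers at the carboxy end of the protein, and differ in the amino-terminal part that recruits other proteins. Klf2, Klf4, Klf6 and Klf7 belong to a branch known mostly for activating genes, Klf3 and Klf12 recruit the corepressor CtBP, and Klf9, Klf10, Klf11 and Klf13 recruit the corepressor Sin3. In blood cells Klf2 is known for holding lymphocytes in a quiescent, recirculating state and for restraining inflammatory activation of monocytes, and Klf4 for the development of monocytes.

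The promoters of the 2 members with the largest differences in either direction, Klf2 (higher in spleen) and Klf9 (higher in bone marrow), are shown as the 250 bases before the start site, from RefSeq on build GRCm38.p6. Both lie on the plus strand, Klf2 at chr8:72318812-72319061 and Klf9 at chr19:23140976-23141225. Capitals mark the CACCC box on either strand and, in Klf2, a match to the binding motif of MEF2, a transcription factor activated by the kinase ERK5.
Klf2: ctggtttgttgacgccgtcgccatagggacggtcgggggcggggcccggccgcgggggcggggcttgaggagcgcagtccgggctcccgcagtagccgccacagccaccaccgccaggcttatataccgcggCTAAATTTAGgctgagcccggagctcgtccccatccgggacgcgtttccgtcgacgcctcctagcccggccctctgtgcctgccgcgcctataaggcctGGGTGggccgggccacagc
Klf9: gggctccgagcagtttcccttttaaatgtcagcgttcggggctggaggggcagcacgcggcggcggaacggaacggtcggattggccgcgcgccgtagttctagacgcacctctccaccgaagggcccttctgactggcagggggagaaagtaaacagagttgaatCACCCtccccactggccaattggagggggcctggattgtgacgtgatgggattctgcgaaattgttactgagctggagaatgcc

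Promoter windows of 300 bases, which run 50 bases past the start site, were found for 9 of the 10 members, not for Klf10. They were searched on both strands. Windows on 1 chromosome were left out, so the shares of all windows given here do not include it. The MEF2 motif matched in 1 of the 9, Klf2, at bases -118 to -109 from the start site, and in 0.557% of 32851 RefSeq windows. CACCC occurred in 6 of the 9 windows, against 57.5% of all windows, and the GC box GGGCGG, which contains no CACCC, in 7 of the 9 against 35.7%. The longer erythroid-type box CCACACCC, which contains CACCC, occurred in Klf12 alone among the 9, against 3.56% of all windows. The CCAAT box occurred in 4 of the 9, with 3 matches in Klf9 and 4 in Klf6, against 37.4% of all windows. AGAACA, a half-site of the glucocorticoid receptor, matched in 0 of the 9 windows (19.0% of all), and the cyclic AMP element TGACGTCA in 0 of the 9 (1.79% of all). A match is a run of letters and was not tested as a binding site.

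All 10 members had reads in both libraries, and most lay within 2-fold between the tissues. Levels are given as CPM, which are uniquely placed reads scaled to a common library size after TMM correction for library composition. The floor for a measured gene was 1 CPM together with 10 reads in either library, and all 10 members passed it. A gene is called higher in a tissue when log2(CPM + 1) differed by 2-fold or more. By this rule 3 members were higher in spleen (Klf2, Klf3 and Klf12), against 14.6% of 12970 measured genes. In the opposite direction 1 member was higher in bone marrow (Klf9), against 14.1% of measured genes. The remaining 6 lay within 2-fold, against 71.2% of measured genes. The median log2 ratio of the members, bone marrow minus spleen, was -0.40, and that of all measured genes 0.03, with quartiles of -0.59 and 0.58. With 10 genes these counts are a description.

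**Figure D1:**
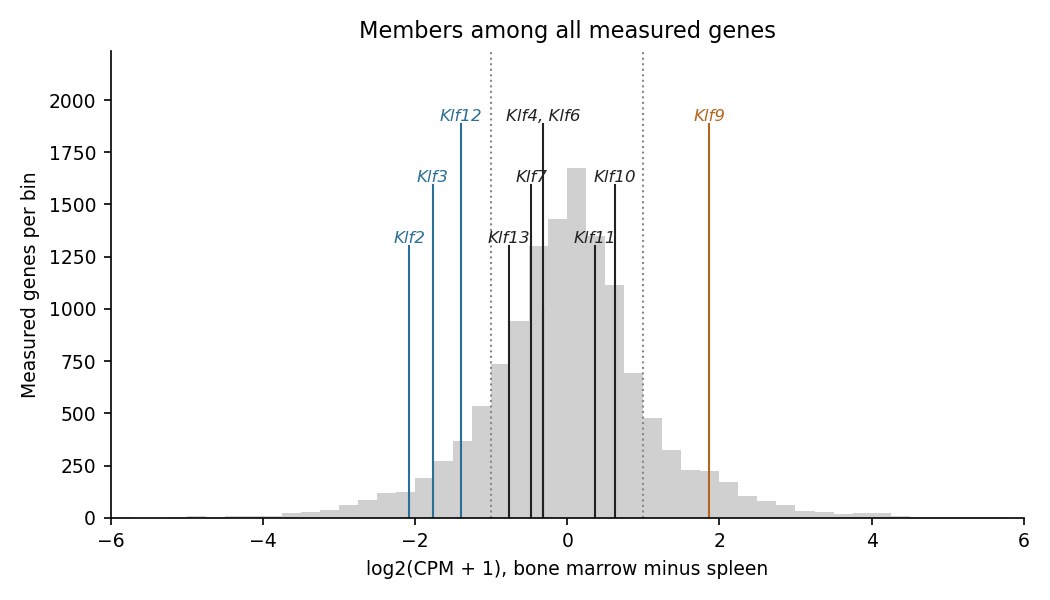
Histogram of the log2(CPM + 1) difference, bone marrow minus spleen, of 12970 measured genes (bars, genes per bin), with the 10 members as vertical lines and the 2-fold limits dotted. Klf2, Klf3 and Klf12 lie left of the lower limit at -2.08, -1.77 and -1.40, and Klf9 lies right of the upper limit at 1.87. Klf4 and Klf6 each have a line at -0.32 and share a label.

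There is 1 library per tissue, so no test between tissues is possible and no p-value is given. Each fold is a CPM ratio, and its 95% interval is the exact conditional binomial one (Clopper-Pearson). Such intervals hold counting error alone, since reads made by PCR and carrying no molecular identifier are not independent molecules and the spread between animals is not known. The interval excluded equal levels for all 10 members, including those within 2-fold, and for 74.1% of measured genes, so at this depth it sets few genes apart. The effective depth after scaling was 9405947 reads for bone marrow and 8457857 for spleen. In RNA of sorted cells, fewer cells of a type and less RNA per cell cannot be told apart.

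**Figure D2:**
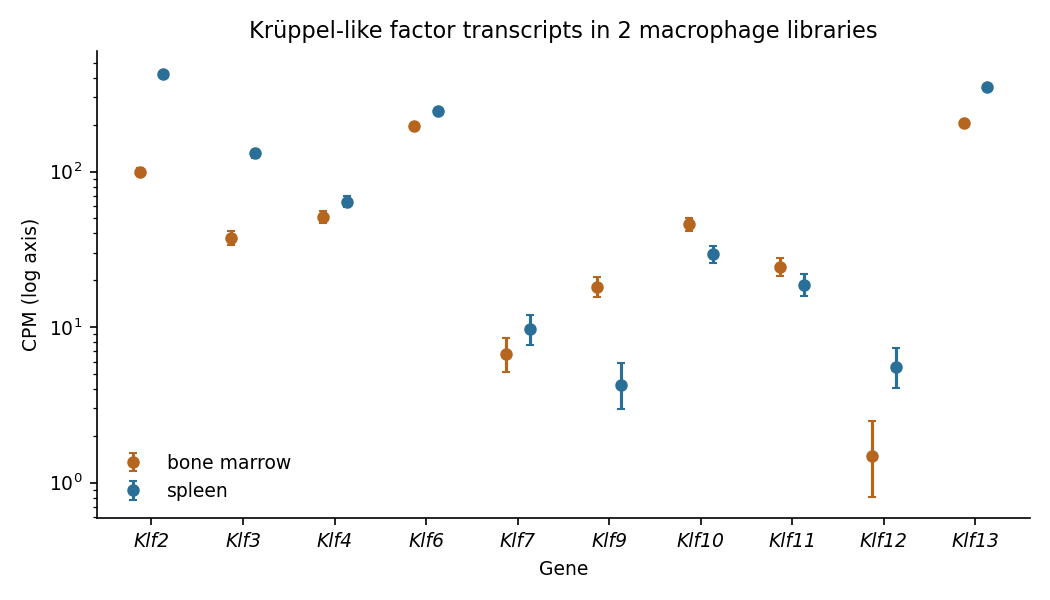
CPM of the 10 members (log axis) in the bone marrow and spleen libraries, 1 point per library, with exact 95% Poisson intervals of the count. Klf2 stood at 99.4 CPM in the bone marrow library against 423 CPM in the spleen library, and Klf9 at 18.2 against 4.26 CPM.

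Among the activating branch, Klf2 differed most. Klf2, a shear- and quiescence-linked factor of endothelium, T cells, B cells and monocytes, had 935 bone marrow reads and 3577 spleen reads. Its level was 99.4 CPM (95% counting interval 93.1 to 106) in bone marrow and 423 CPM (409 to 437) in spleen. The spleen library was thus 4.25-fold higher (3.96 to 4.58), and 3.80% of measured genes had a log2 ratio as low or lower.

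Klf4 and Klf6 were close to equal between the libraries. Klf4, a factor of monocyte differentiation, had 482 and 542 reads, or 51.2 CPM (bone marrow) and 64.1 CPM (spleen), a 1.25-fold difference towards spleen (1.10 to 1.42). Klf6, an injury-induced factor with a part in inflammatory gene activation in macrophages, had 1849 and 2077 reads, or 197 and 246 CPM, and also a 1.25-fold difference (1.17 to 1.33). Klf7, known best from neurons and related in sequence to Klf6, was low, with 63 and 82 reads, or 6.70 and 9.70 CPM. Its 1.45-fold difference towards spleen had the interval nearest to equal levels among the members (1.03 to 2.04). Klf2 and Klf4 are often named together, and their ratios between the tissues differed: the interval of Klf2 began at 3.96 and that of Klf4 ended at 1.42.

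Both CtBP-recruiting members were higher in spleen. Klf3, a repressor with roles in B cell subsets, erythroid cells and fat, had 354 bone marrow reads and 1106 spleen reads. That is 37.6 CPM (33.8 to 41.8) against 131 CPM (123 to 139), a 3.47-fold difference (3.08 to 3.93). Klf12 was the least abundant member, with 14 and 47 reads, or 1.49 CPM (0.814 to 2.50) and 5.56 CPM (4.08 to 7.39). Its CPM ratio was 3.73 (2.02 to 7.34) towards spleen. Reads covered 11.95% of the length of Klf12 in bone marrow and 34.57% in spleen, per the deposited coverage column. The call for Klf12 was lost with a pseudocount of 5 CPM (log2 ratio -0.70) and with the deposited RPKM (-0.67).

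The Sin3-recruiting members went both ways. Klf9, a gene induced by glucocorticoid and thyroid hormone, had 171 bone marrow reads and 36 spleen reads, or 18.2 CPM (15.6 to 21.1) and 4.26 CPM (2.98 to 5.89). The bone marrow level was 4.27-fold the spleen level (2.97 to 6.30). Reads covered 84.4% of its length in bone marrow and 41.43% in spleen. Klf10 and Klf11, both early-response genes of TGF-beta, leaned the same way within 2-fold. Klf10 had 433 and 250 reads, or 46.0 and 29.6 CPM, and was 1.56-fold higher in bone marrow (1.33 to 1.83). Klf11 had 229 and 158 reads, or 24.3 and 18.7 CPM, and was 1.30-fold higher in bone marrow (1.06 to 1.61). Klf13, a factor of late Ccl5 expression in T cells, differed from the other members of this branch in direction. It had 1930 and 2967 reads, or 205 and 351 CPM, and was 1.71-fold higher in spleen (1.61 to 1.81).

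**Figure D3:**
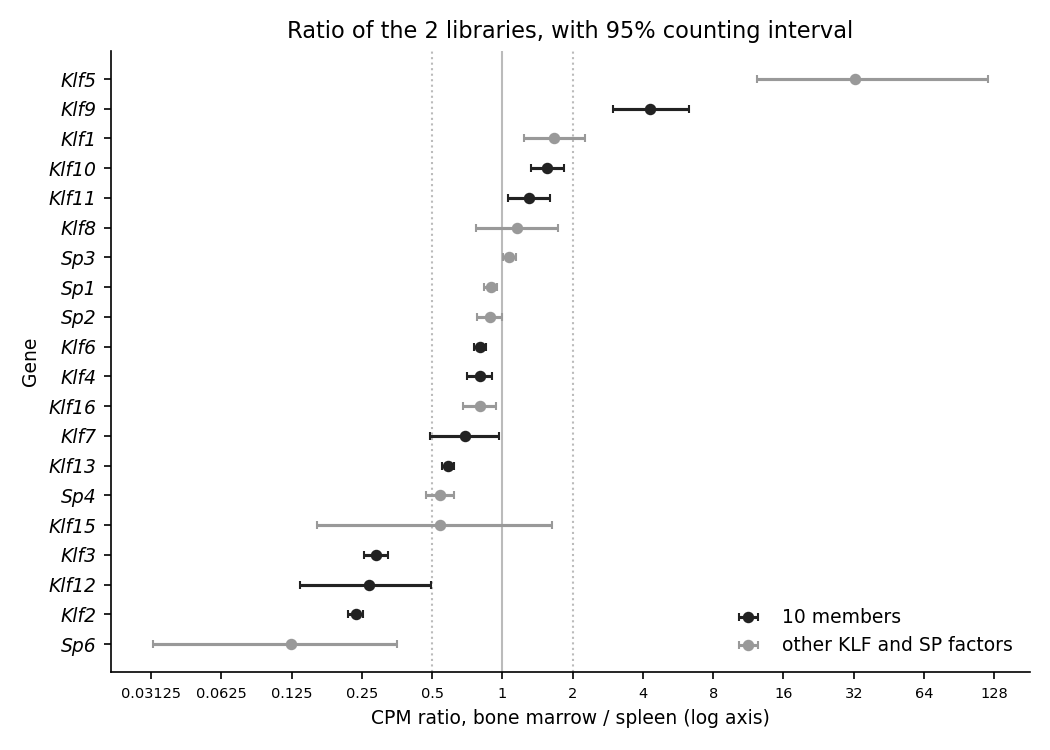
CPM ratio, bone marrow over spleen (log axis), of the 10 members (black) and of the 10 measured other KLF and SP factors (grey), with exact 95% counting intervals, the solid line at equal levels and the dotted lines at 2-fold. Klf5 has the highest ratio (32.4) and Sp6 the lowest (0.124), each with 4 reads in the lower library.

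Levels can be compared between genes only per length, for which the deposited RPKM values (reads scaled to gene length and library total) were used. In bone marrow the order was Klf2 (53.5 RPKM), Klf6 (45.6), Klf13 (31.3), Klf4 (16.4), Klf3 (15.9), Klf10 (14.8), Klf11 (5.97), Klf9 (5.44), Klf7 (4.87) and Klf12 (0.253). In that order counting error did not separate Klf4 from Klf3, Klf3 from Klf10, Klf11 from Klf9 or Klf9 from Klf7, while the other neighbours were separated. In spleen the order was Klf2 (238 RPKM), Klf6 (59.6), Klf3 (57.8), Klf13 (56.1), Klf4 (21.5), Klf10 (9.93), Klf7 (7.38), Klf11 (4.80), Klf9 (1.33) and Klf12 (0.990). There Klf6 was not separated from Klf3, Klf3 from Klf13 or Klf9 from Klf12, and the other neighbours were. Klf2 came first in both libraries, 1.17 times the RPKM of Klf6 in bone marrow (1.08 to 1.27) and 3.999 times in spleen (3.79 to 4.22). Among all genes listed in each library, Klf2 stood at percentile 90.1 of RPKM in bone marrow and 98.7 in spleen, Klf3 at 66.9 and 91.5, and Klf9 at 44.8 and 28.3.

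The make-up of the family therefore differed. Klf2 took 27.6% of the summed RPKM of the members in bone marrow and 52.1% in spleen. The share of Klf6 was 23.5% and 13.02%, that of Klf13 16.2% and 12.3%, and that of Klf4 8.44% and 4.69%. Klf10 took 7.62% and 2.17%, and Klf9 2.81% and 0.292%. The shares of Klf3 (8.19% and 12.6%) and Klf12 (0.131% and 0.216%) were larger in spleen, as that of Klf2 was. Shares add up to a fixed total and do not vary independently. In CPM the members summed to 687 in bone marrow and 1282 in spleen, and without Klf2 to 587 and 859.

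**Figure D4:**
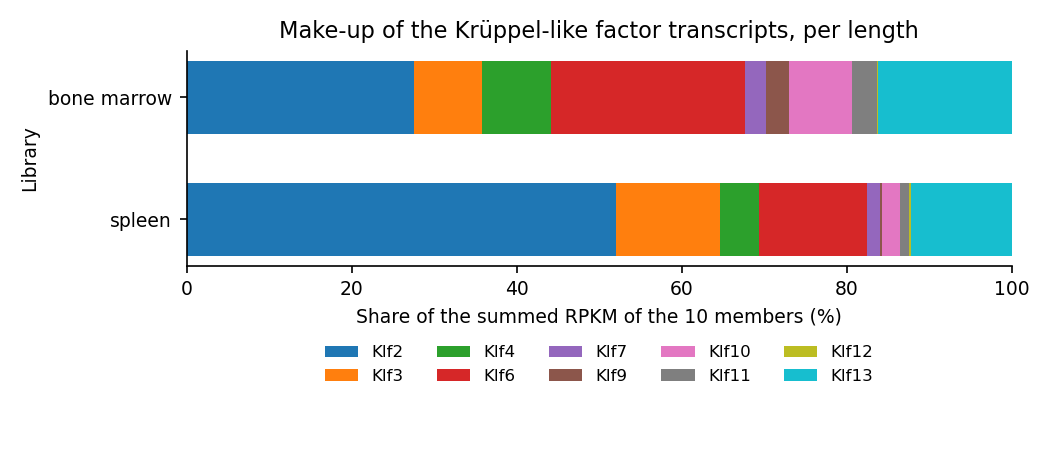
Share of each member in the summed RPKM of the 10 members (%), 1 bar per library. Klf2 fills 27.6% of the bone marrow bar and 52.1% of the spleen bar, and the share of Klf6 is 23.5% and 13.02%.

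Among the other KLF and SP factors, which bind similar GC-rich sites, most lay within 2-fold, as did 71.2% of all measured genes. Of 17 listed genes, 10 were measured, with 1 called higher in bone marrow, 1 in spleen and 8 in neither, and a median log2 ratio of -0.17. Klf5, a growth-linked factor of epithelium and granulocyte precursors, had 144 bone marrow reads and 4 spleen reads, a 32.4-fold difference (12.4 to 120). Sp6 had 4 and 29 reads, an 8.06-fold difference towards spleen (2.83 to 31.6), and it did not pass 2-fold with a pseudocount of 5 CPM or the deposited RPKM. A floor of 10 CPM removed Sp6. Klf1, the master regulator of erythroid genes, had 130 and 70 reads, or 13.8 and 8.28 CPM. The broadly expressed Sp1 was at 207 and 232 CPM, Sp2 at 52.4 and 59.5 CPM, and Sp3 at 199 and 186 CPM. Sp4 was at 35.1 and 64.8 CPM, Klf16 at 30.4 and 38.1 CPM and Klf8 at 6.27 and 5.44 CPM. Klf15 had 6 and 10 reads and Klf17 0 and 1. Klf14, Klf18, Sp5, Sp7, Sp8 and Sp9 had no read in either library, which allows up to 0.319 CPM (bone marrow) or 0.355 CPM (spleen).

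Genes for proteins that act with Krüppel-like factors were mostly within 2-fold, as were 71.2% of all measured genes. Of 18 corepressors, coactivators and ubiquitin ligases, bone marrow was higher for 1, spleen for 2 and neither for 15, and the median log2 ratio was 0.23. The CtBP paralogs, corepressors of Klf3 and Klf12, were unlike each other: Ctbp2 was 5.23-fold higher in bone marrow (4.24 to 6.50), at 64.3 and 12.3 CPM, while Ctbp1, the most abundant gene of the list, was at 297 and 235 CPM. The Sin3 scaffolds Sin3a and Sin3b were at 152 and 135 CPM and at 92.7 and 114 CPM. Crebbp, a histone acetyltransferase, was 2.40-fold higher in spleen (2.16 to 2.66). Fbxw7, a ubiquitin ligase subunit that targets Klf2 among other proteins, was 2.29-fold higher in spleen (1.91 to 2.75).

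Among genes linked to the routes that switch on Klf2 and Klf4, spleen was the higher library where a 2-fold difference was reached. Of 13 genes linked to the MEKK3-ERK5-MEF2 and FOXO1 routes, spleen was higher for 4, bone marrow for 0 and neither for 9. The shares of all measured genes, in the same order, were 14.6%, 14.1% and 71.2%. The median log2 ratio was -0.49. The 13 include Krit1, Ccm2 and Pdcd10, all within 2-fold, and were not sorted into genes that raise and genes that restrain the routes. Foxo1, a factor that activates Klf2 in T cells, was at 43.2 CPM (bone marrow) and 237 CPM (spleen), a 5.49-fold difference (4.93 to 6.13). Mef2c was at 115 and 266 CPM, 2.31-fold higher in spleen (2.15 to 2.49), and Mef2b had 2 and 42 reads. Mapk7, which encodes ERK5, was at 40.3 and 55.2 CPM, and Map3k3, which encodes MEKK3, at 97.2 and 137 CPM. Lymphocytes also express Foxo1, Mef2b and Mef2c. All 9 measured B cell and all 10 T cell markers were higher in spleen, and the part of those cells was not tested.

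KLF2-linked lymphocyte trafficking genes were mostly higher in spleen, as Klf2 was. Spleen was higher for 4 of the 5, against 14.6% of all measured genes, and the median log2 ratio was -2.05. S1pr1, the receptor for lymphocyte egress that Klf2 is known to activate in T cells, was 19.0-fold higher in spleen (16.1 to 22.7). The homing integrin chain Itgb7 was 4.18-fold higher (3.88 to 4.49) and Ccr7, the lymph node homing receptor, 31.9-fold (25.4 to 40.5). Cd69, a surface protein that removes S1pr1 from the membrane, was 2.36-fold higher (2.04 to 2.75). The 4 genes higher in spleen thus include one that opposes another of them. Whether Klf2 acts on any of them in these cells was not tested. Lymphocyte markers moved with these genes: all 9 measured B cell markers and all 10 T cell markers passed 2-fold towards spleen, with median log2 ratios of -3.17 and -3.08 against -2.08 for Klf2. The summed level of the B cell markers was 430 CPM (bone marrow) and 4763 CPM (spleen), and that of the T cell markers 227 and 1667 CPM. Ighd had no read in either library, and the other 9 B cell markers had reads in both. The part of these cells in the Klf2 result was not tested.

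KLF4-linked monocyte and macrophage genes went both ways. Of 10 listed genes 7 were measured, 3 of them higher in bone marrow, 1 in spleen and 3 within 2-fold. Their median log2 ratio was 0.92, or 0.28 with no floor on low counts. Mrc1, also 1 of the macrophage markers, was 2.59-fold higher in spleen (2.23 to 3.02), and Cd14, Pparg and Stat6 were within 2-fold. Ly6c2 was 2.86-fold higher in bone marrow (2.61 to 3.14). Chil3, a chitinase-like protein, was higher in bone marrow by 16.8-fold (15.8 to 17.9) and Itgam, the CD11b integrin, 4.06-fold (3.82 to 4.31). Granulocyte precursors express both Chil3 and Itgam. All 15 neutrophil markers were higher in bone marrow, with a summed level of 48665 CPM against 2293 CPM in spleen. Arg1 and Nos2, which Klf4 is known to raise and lower in macrophages, had 3 and 2 reads in the bone marrow library, 2 and 0 in the other, and Retnla had none, so a difference could not be seen at these read numbers.

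TGF-beta pathway genes were not called higher in bone marrow, where Klf10 and Klf11 leaned. Of 11 listed genes 10 were measured, 0 of them higher in bone marrow (1 with a pseudocount of 0.1), 3 in spleen and 7 in neither. The median log2 ratio was -0.23, or 0.02 with no floor. Smad7, the inhibitory Smad that Klf10 is known to repress, was 4.12-fold higher in spleen (3.53 to 4.83). The receptor chain Tgfbr2 was 3.28-fold higher in spleen (3.04 to 3.54). The ligand Tgfb1 stood at 355 CPM (bone marrow) and 273 CPM (spleen).

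The glucocorticoid receptor gene and genes induced by glucocorticoids, as Klf9 is, were divided. Bone marrow was higher for 1 of the 7, spleen for 2 and neither for 4, and the median log2 ratio was -0.65. For all measured genes the shares were 14.1%, 14.6% and 71.2%. Fkbp5, a receptor cochaperone, was 2.66-fold higher in bone marrow (2.40 to 2.95), the direction of Klf9. Tsc22d3, which encodes GILZ, and the stress gene Ddit4 were higher in spleen, by 5.86-fold (5.41 to 6.36) and 6.49-fold (5.69 to 7.43). The receptor itself, Nr3c1, is 1 of the 7 and was at 118 and 161 CPM. Of 5 CDK inhibitors linked to Krüppel-like factors, bone marrow was higher for 1 (0 with a pseudocount of 5) and spleen for 1 (median log2 ratio 0.74). Cdkn1b, a quiescence gene, was 2.38-fold higher in spleen (2.16 to 2.62) and Cdkn2c 2.28-fold higher in bone marrow (1.78 to 2.93).

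**Figure D5:**
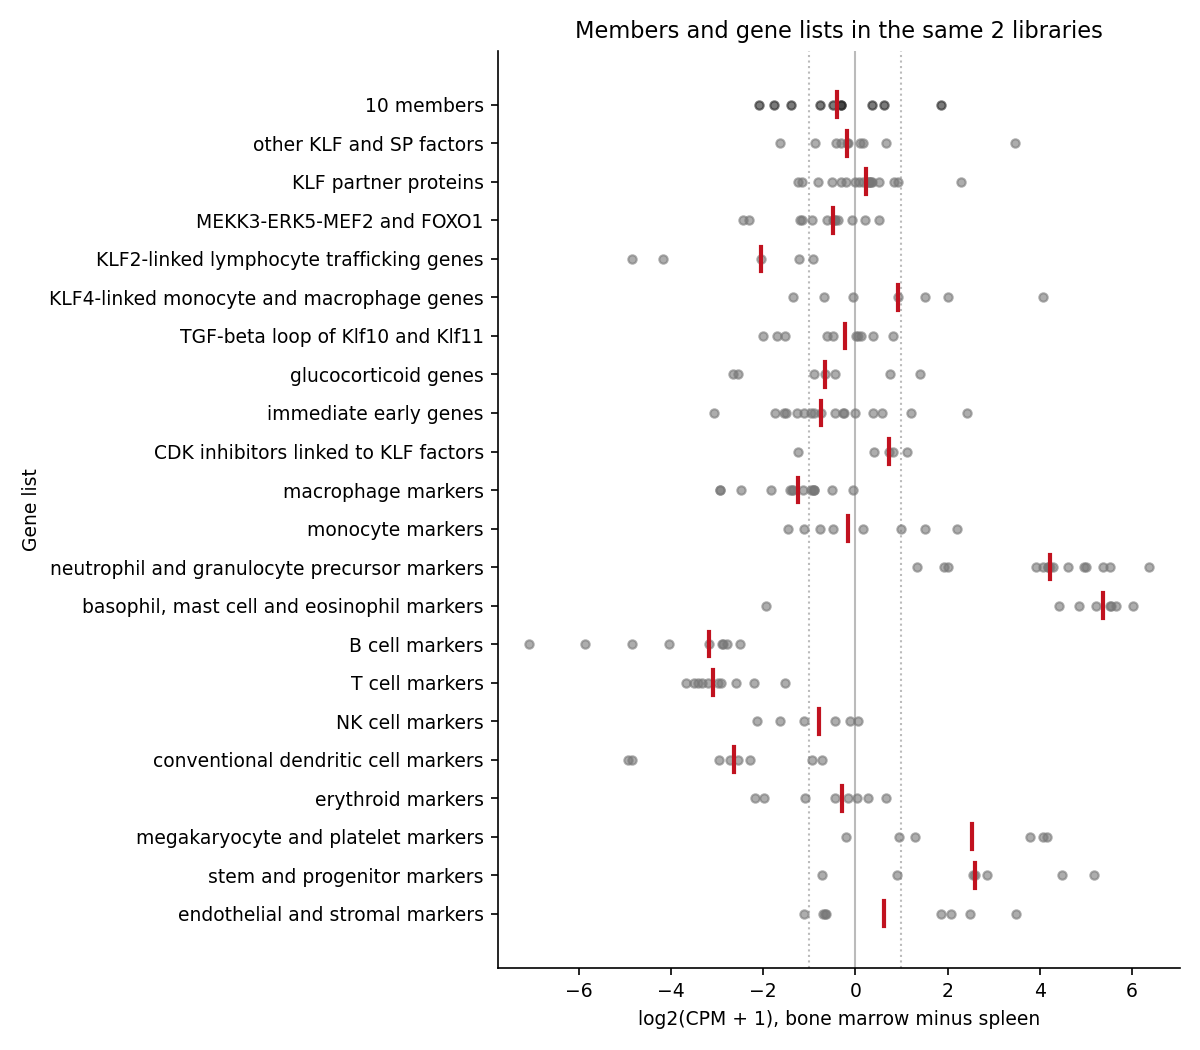
Log2(CPM + 1), bone marrow minus spleen, of each measured gene (points) in the 10 members and in 21 gene lists, with each list's median as a red bar and the 2-fold limits dotted. The members run from -2.08 to 1.87, while neutrophil markers lie to the right (median 4.23) and B and T cell markers to the left (medians -3.17 and -3.08).

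The labelled cell type and the other lineages were read from marker lists. All 14 macrophage markers had reads in both libraries, summing to 650 CPM (bone marrow) and 1515 CPM (spleen), with 8 higher in spleen, 0 in bone marrow and a median log2 ratio of -1.24. Neutrophil and granulocyte precursor markers summed to more in both libraries, at 48665 CPM (bone marrow) and 2293 CPM (spleen), with all 15 higher in bone marrow. B cell markers summed to 430 and 4763 CPM, and T cell markers to 227 and 1667 CPM. Monocyte markers had 2 of 8 higher in each tissue (median -0.16, sums of 749 and 753 CPM). Conventional dendritic cell markers had 6 of 8 higher in spleen (median -2.63, sums of 179 and 1022 CPM) and NK cell markers 3 of 6 (median -0.78, sums of 117 and 234 CPM). In the library where Klf9 and Klf5 were higher, 7 of 8 basophil, mast cell and eosinophil markers (median 5.36, sums of 2387 and 66.7 CPM) and 5 of 7 stem and progenitor markers (median 2.58, sums of 1469 and 372 CPM) were higher as well. Megakaryocyte markers had 4 of 6 measured genes higher in bone marrow (median 2.53, sums of 298 and 20.5 CPM, with Gp6 at no read). Erythroid markers, which include Klf1, had 3 of 8 higher in spleen (median -0.30, sums of 83.9 and 120 CPM), and endothelial and stromal markers 4 of 8 called towards bone marrow, with 1 towards spleen (2 and 0 with a pseudocount of 5 or the deposited RPKM, 1 and 0 with a floor of 10 CPM, median 0.61, sums of 163 and 190 CPM, with Cxcl12 at no read in spleen). The part of these lineages, or of the GFP-labelled leukaemia cells, in the values of any member or list was not tested.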

How the data were processed

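RNA-seq of sorted macrophages gave 1 gene table per tissue. Each table holds, per the file headers, what the authors deposited for a gene: a count of uniquely placed reads, a length, the percent of the length covered by reads, and RPKM. Of the aligner, counter, build, annotation and strand setting, the sources used here name none. Counts summed to the header totals, and a gene missing from a table has 0 reads. Recomputed RPKM differed from the deposited values by at most 6.74e-06 percent. Tables were joined on the Entrez identifier, and a RefSeq table of GRCm38.p6 named 16379 of 16428 genes. RefSeq lists 11 genes that overlap 6 of the members, of which 1 (E030018B13Rik, at Klf13) had reads, 1 and 2. With the strand setting unknown, reads of overlapping genes cannot be told apart.

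Counts were scaled with TMM (edgeR 4.0.16, R 4.3.3; effective sizes of 9405947 and 8457857 reads) and compared as log2(CPM + 1). That scale shrinks differences of low genes. edgeR's quasi-likelihood test needs replicates, so no test was run. A count of 0 was taken to allow 3 reads. The procedure was checked on simulated Poisson counts, which hold counting error alone and so cannot check the spread between animals. The values of 1 gene of the trafficking list are not reported here. The members and the 21 gene lists were chosen with earlier results of these data known, lists overlap, and the text names all members, all measured other KLF and SP factors, and for other lists mainly the 2 largest ratios and the most abundant gene. Other list genes named for their role (such as Itgb7, Cd69, Fbxw7, Sin3a, Mapk7 and Nr3c1) were chosen after their values were seen. Alternatives changed the scaling (DESeq2 1.42.0, library totals, TMM without markers of other cell types), the pseudocount (0.1, 5), the floor (none, 10 CPM), the unit (deposited RPKM) and the rule (4-fold).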

Additional observations from a re-analysis of the deposited data

How the results depend on the processing

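The direction of all 10 members held under each alternative in which they were measured. The calls of Klf2, Klf3 and Klf9 held under every scaling, pseudocount and floor tried, with log2 ratios of -2.14 to -2.04 for Klf2, -1.84 to -1.67 for Klf3 and 1.32 to 2.07 for Klf9. Klf12 was within 2-fold with a pseudocount of 5 (-0.70) and with the deposited RPKM (-0.67), and a floor of 10 CPM removed Klf12 and Klf7. The count higher in spleen was then 2 in each of these 3 settings. Of all measured genes, 9.33% (pseudocount of 5), 12.4% (deposited RPKM) and 13.3% (floor of 10 CPM) were higher in spleen. With a 4-fold rule 1 member, Klf2, was higher in spleen and 0 in bone marrow, against 4.09% and 4.42% of measured genes. The median of the members ran from -0.46 (library totals) to -0.32 (floor of 10 CPM). Of 168 list medians recomputed, 9 moved by more than their genes' median counting error, and of 378 list counts 28 changed by more than 1.5 times. No paired analysis was possible because each tissue has 1 library. Depth limits Klf12, Klf9 in spleen and Klf7, with under 100 reads each. The single library per tissue leaves the spread between animals unknown.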

Other observations

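Immediate early genes, which include partners induced together with Klf2, Klf4, Klf6 and Klf10 when cells are stimulated or dissociated, were divided between the libraries. Of 17 such genes, all measured, bone marrow was higher for 2, spleen for 6 and neither for 9, and the median log2 ratio was -0.75, or -0.44 with a floor of 10 CPM. Egr3 was 11.04-fold higher in spleen (95% counting interval 7.36 to 17.2) and Ier3 5.82-fold higher in bone marrow (4.58 to 7.47). Zfp36, the most abundant over both libraries, stood at 387 CPM (bone marrow) and 652 CPM (spleen). Fos was at 394 and 302 CPM, Egr1 at 192 and 232 CPM and Dusp1 at 218 and 220 CPM. Each was within 2-fold, as were Klf4, Klf6 and Klf10, while Klf2 was 4.25-fold higher in spleen. Jun was 2.30-fold higher in bone marrow and Nr4a1 2.18-fold higher in spleen. Egr2 and Egr3 are also activation genes of lymphocytes, whose markers were higher in spleen, and the part of those cells was not tested.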
